A study of Homo sapiens with 12 samples.

Results

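The insulin-like growth factor (IGF) system was followed in T-HESC, a telomerase-immortalised line of stromal cells from the human endometrium, through 1 ligand (IGF1), both receptors (IGF1R and IGF2R) and 6 binding proteins (IGFBP2 to IGFBP7). Every array probe that was listed with one of these genes alone was taken, whatever its level. That gave 16 probes for 8 of the 9 genes, out of 54359 probes on the array and 18278 genes with such a probe. IGFBP6 was listed only on a probe shared with another gene and therefore has no value here. A further IGFBP7 probe shared with a second gene was not used. All 16 probes had enough values to be tested.

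Cultures received tumour necrosis factor alpha (TNFα, 5 ng/ml; called TNF below), interleukin 1 beta (IL1β, 1 ng/ml; IL1), both cytokines at those doses (TNF+IL1), or vehicle. Treatment lasted 48 h. In every group, vehicle included, the cells came from the same immortalised line, were kept without serum for 24 h beforehand, and stayed in a medium with insulin and puromycin. Each group had 3 arrays, from cells at passage 13 (replicate 1), passage 28 (replicate 2) and passage 15 (replicate 3), and the stated purpose was to find genes whose expression differs with these cytokines. Values are log2 scaled intensities, in which 0 lies close to the middle probe of an array. They compare the same probe between arrays and say nothing of one probe against another.

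IGF1 and its relative IGF2 are secreted growth factors that signal through IGF1R, a receptor tyrosine kinase that feeds the PI3 kinase and MAP kinase pathways. IGF2R, the cation-independent mannose 6-phosphate receptor, takes up IGF2 and delivers it to lysosomes. The binding proteins hold the ligands outside the cell and so limit or prolong their action, until proteases such as PAPPA cut them. In the endometrium IGF1 is known as a stromal product of the oestrogen-driven phase, and IGFBP1 as a product of decidualised stroma.

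On the arrays of cells given both cytokines, 2 of 3 IGF1 probes, 1 of 2 IGFBP4 probes and the IGFBP7 probe lay higher than on the vehicle arrays, with no overlap between the groups. The IGFBP3 probe and 1 of 2 IGF2R probes lay lower, also without overlap. None of these differences passed the test. Between TNF+IL1 and vehicle, 0 of the 16 probes had an adjusted p under 0.05 (limma, Benjamini-Hochberg over all 53671 probes tested), where 0.248% of all probes did. An unadjusted p under 0.05 was found for 4 of the 16, against 12.9% of all probes. Groups without overlap were found for 4 probes in the higher direction, against 7.02% of all probes, and for 2 in the lower direction, against 14.8%. The 4 higher probes include 2 of the same gene, IGF1.

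Before the values, 250 bases of genome sequence just upstream of the annotated transcription starts are shown for IGF1 and IGFBP3, the members whose lowest p-values stood for changes in opposite directions. Sequences are RefSeq's (GRCh38.p14), written 5′ to 3′ on the strand of the gene. Capitals mark CG dinucleotides.
IGF1, chr12:102478551-102478800, minus strand: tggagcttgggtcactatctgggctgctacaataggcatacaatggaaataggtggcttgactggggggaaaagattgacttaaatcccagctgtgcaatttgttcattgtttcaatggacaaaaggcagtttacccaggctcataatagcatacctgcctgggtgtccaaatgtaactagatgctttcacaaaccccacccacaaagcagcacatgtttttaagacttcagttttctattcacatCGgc
IGF1, chr12:102481748-102481997, minus strand: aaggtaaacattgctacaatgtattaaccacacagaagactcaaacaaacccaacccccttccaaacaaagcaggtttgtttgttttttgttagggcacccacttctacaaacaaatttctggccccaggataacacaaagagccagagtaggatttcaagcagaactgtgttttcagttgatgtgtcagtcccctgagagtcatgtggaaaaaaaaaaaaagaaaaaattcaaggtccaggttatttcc
IGFBP3, chr7:45921273-45921522, minus strand: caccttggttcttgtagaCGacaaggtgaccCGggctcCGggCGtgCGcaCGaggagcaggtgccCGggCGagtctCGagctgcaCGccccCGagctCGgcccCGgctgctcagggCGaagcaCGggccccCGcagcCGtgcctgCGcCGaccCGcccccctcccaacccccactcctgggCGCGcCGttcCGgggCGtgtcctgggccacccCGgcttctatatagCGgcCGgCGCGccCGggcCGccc
The IGFBP3 stretch holds 32 CG dinucleotides, and the IGF1 stretches hold 1 and 0. The median over 35116 such promoters was 11. The NF-kB consensus, searched on both strands, was found in none of these stretches and in 5.21% of all promoters. It was found in 3 of the 11 promoters of the 8 members that have an entry. Those 3 belong to IGFBP2, IGFBP5 and IGFBP6. The 8 members with an entry include IGFBP6, which has no array value here, and leave out IGFBP7. GGGCGG, the core of the Sp1 motif, also searched on both strands, was present in 42.64% of all promoters. The IGFBP3 stretch held it only on the strand opposite to the one printed. Such letter matches describe these windows and were not set against the array values.

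IGF1, the ligand, was measured by 3 probes. Probe 240070 read 0.91, 0.53 and 0.65 on the TNF+IL1 arrays (replicates 1, 2 and 3), 0.22, 0.43 and −0.15 on the TNF arrays, 0.31, 0.20 and −0.35 on the IL1 arrays, and −0.37, −0.31 and −0.02 on the vehicle arrays. Each TNF+IL1 array lay above every other array of the series, while the TNF, IL1 and vehicle arrays overlapped. The share of all probes whose 3 highest arrays were those of TNF+IL1 was not computed. How common this order is therefore remains unknown, here and for the probes described so below. TNF+IL1 minus vehicle was 0.93 ± 0.24 (limma standard error; 95% interval 0.40 to 1.46), with an unadjusted p of 0.00298 and an adjusted p of 0.173. By passage the difference was 1.28 at passage 13, 0.83 at passage 28 and 0.66 at passage 15. The smallest two-sided p that an exact permutation test of 3 arrays against 3 allows is 0.1, and the limma fit is therefore the test used. In bulk RNA, fewer cells of a kind and less RNA per cell cannot be told apart.

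A second IGF1 probe, 289076, gave 0.77, 0.49 and 0.71 with TNF+IL1, −0.13, −0.19 and −0.72 with TNF, 0.42, −0.69 and −1.16 with IL1, and −0.07, −0.65 and −1.38 with vehicle. Here too the TNF+IL1 arrays were the 3 highest of the 12. The difference between TNF+IL1 and vehicle was 1.36 ± 0.42 (0.41 to 2.30, adjusted p = 0.234). Over the 12 arrays this probe and 240070 correlated at r = 0.76 as a description, since both read the same samples.

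The third IGF1 probe, 352107, did not show that order, and over the arrays its r was 0.45 with probe 240070 and 0.04 with probe 289076. It read 0.18, 0.07 and −0.02 with TNF+IL1, −0.17, 0.03 and 0.60 with TNF, 0.25, −0.02 and −0.21 with IL1, and −0.99, −1.92 and 0.62 with vehicle. Its groups overlapped because vehicle replicate 3 was the highest array of all, and TNF+IL1 minus vehicle was 0.85 ± 0.52 (−0.30 to 1.99, adjusted p = 0.524). Without vehicle replicate 3 that difference was 1.54, and without vehicle replicate 2 it was 0.27. Its within-group SD of 0.68 exceeded that of 91.8% of the 1000 probes nearest to it in level.

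**Figure D1:**
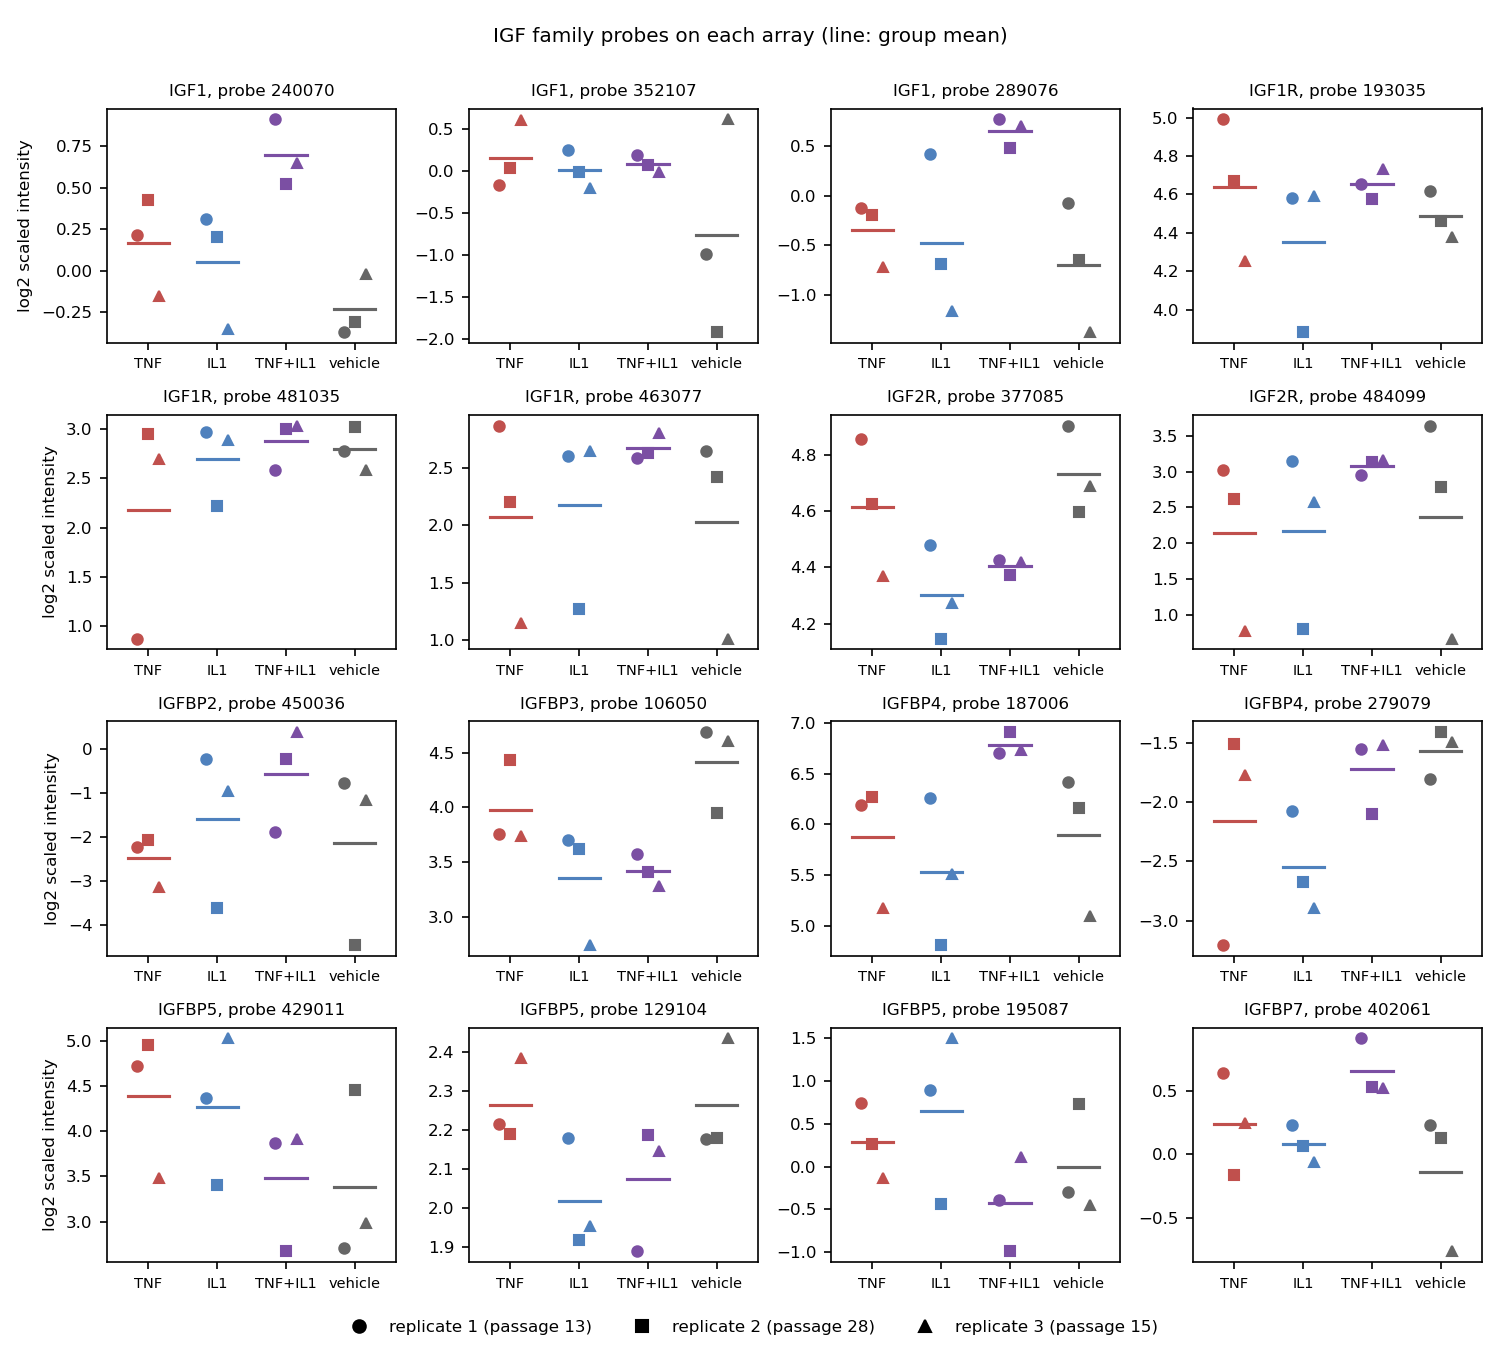
Log2 scaled intensity (vertical axis) of each of the 16 IGF family probes on the TNF, IL1, TNF+IL1 and vehicle arrays. Each point is 1 array, its shape gives the passage, and the line is the group mean; the TNF+IL1 points of IGF1 probes 240070 and 289076 lie above all other points of those panels.

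Against the single cytokines, 2 of the 3 IGF1 probes were also higher with both, and no difference passed the test. TNF+IL1 minus TNF was 0.53 ± 0.24 (−0.0012 to 1.06, adjusted p = 0.979) for probe 240070 and 1.00 ± 0.42 (0.06 to 1.95, adjusted p = 0.979) for probe 289076. TNF+IL1 minus IL1 was 0.64 ± 0.24 (0.11 to 1.17) and 1.14 ± 0.42 (0.19 to 2.08) for those probes, each with an adjusted p of 1.00. Probe 352107 overlapped in both comparisons, at −0.074 ± 0.52 against TNF (−1.22 to 1.07) and 0.073 ± 0.52 against IL1 (−1.07 to 1.22). For the cytokines given alone no IGF1 difference passed the test: TNF minus vehicle was 0.40 ± 0.24 for probe 240070 (−0.13 to 0.93), and IL1 minus vehicle was 0.29 ± 0.24 (−0.24 to 0.82). The interaction of the cytokines was 0.24 (−0.51 to 0.99) for probe 240070, 0.78 (−0.55 to 2.12) for probe 289076 and −0.85 (−2.47 to 0.78) for probe 352107, so that its sign differed between probes and every interval held 0.

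IGF1R, the signalling receptor, showed no difference with any treatment that its spread could resolve. Probe 193035 gave 4.65, 4.57 and 4.73 with TNF+IL1, 4.99, 4.67 and 4.26 with TNF, 4.58, 3.88 and 4.59 with IL1, and 4.62, 4.46 and 4.38 with vehicle. The groups overlapped, and TNF+IL1 minus vehicle was 0.17 ± 0.25 (95% interval −0.39 to 0.72). Probe 463077 followed it over the arrays (r = 0.80) and had low readings on TNF replicate 3 (1.15), IL1 replicate 2 (1.27) and vehicle replicate 3 (1.02), where the other 9 arrays lay between 2.20 and 2.87. In probe 481035, 1 array stood alone: TNF replicate 1 at 0.87, against 2.22 to 3.04 on the rest. The r of this probe was −0.22 with probe 193035 and −0.0049 with probe 463077.

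IGF2R was lower in its tighter probe with IL1 and with both cytokines, without passing the test. Probe 377085 gave 4.43, 4.37 and 4.42 with TNF+IL1, 4.48, 4.15 and 4.28 with IL1, 4.86, 4.62 and 4.37 with TNF, and 4.90, 4.60 and 4.69 with vehicle. Every IL1 and every TNF+IL1 array lay below every vehicle array, while the TNF arrays spanned both ranges. IL1 minus vehicle was −0.43 ± 0.18 (−0.84 to −0.02, adjusted p = 0.501), and TNF+IL1 minus vehicle was −0.32 ± 0.18 (−0.74 to 0.09, adjusted p = 0.492). The other IGF2R probe, 484099, varied more between the arrays of a group than 99.6% of probes of like level, and its readings of 0.78 on TNF replicate 3, 0.80 on IL1 replicate 2 and 0.67 on vehicle replicate 3 stood apart from 2.57 to 3.64 on the other 9 arrays.

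IGFBP3, the main carrier of IGFs in blood and an IGF-binding protein that many stromal cells secrete, was lower wherever IL1 was given. Its probe 106050 read 3.57, 3.41 and 3.28 with TNF+IL1, 3.70, 3.62 and 2.74 with IL1, 3.75, 4.43 and 3.74 with TNF, and 4.69, 3.95 and 4.61 with vehicle. The 6 arrays with IL1 all lay below the 6 without it, although the gap between IL1 replicate 1 and TNF replicate 3 was small. TNF+IL1 minus vehicle was −0.995 ± 0.32 (−1.71 to −0.29, adjusted p = 0.244) and IL1 minus vehicle was −1.06 ± 0.32 (−1.77 to −0.35, adjusted p = 0.431). In all 3 passages the IL1 and the TNF+IL1 array was below the vehicle array of the same passage.

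Averaged over TNF, the IL1 effect (the mean of the IL1 and TNF+IL1 groups minus the mean of the TNF and vehicle groups) on IGFBP3 was −0.81 ± 0.23 (95% interval −1.31 to −0.31), with an unadjusted p of 0.00487 and an adjusted p of 0.330. It was the only one of the 16 probes whose 6 arrays with IL1 lay below all 6 without it, which 1.69% of all probes did. In that comparison 0 of the 16 passed the adjusted threshold (0.0112% of all probes did) and 3 had an unadjusted p under 0.05 (11.4% of all probes). Besides IGFBP3 these were IGF2R probe 377085, also lower (−0.32, −0.61 to −0.03), and IGF1 probe 240070, which was higher (0.41, 0.03 to 0.78). In IGFBP3, TNF alone differed less from vehicle, by −0.44 ± 0.32 (−1.15 to 0.27), with TNF replicate 2 above vehicle replicate 2.

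IGFBP4, an inhibitor of IGF action and the classic substrate of PAPPA, had 2 probes that disagreed. Probe 187006 gave 6.71, 6.92 and 6.74 with TNF+IL1, 6.20, 6.27 and 5.18 with TNF, 6.26, 4.81 and 5.51 with IL1, and 6.42, 6.16 and 5.09 with vehicle. The TNF+IL1 arrays were the 3 highest of the series and close together, whereas each other group had at least 1 low array. TNF+IL1 was above vehicle by 0.90 ± 0.45 (−0.11 to 1.90, adjusted p = 0.440) and above IL1 by 1.26 ± 0.45 (0.26 to 2.27, adjusted p = 1.00).

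The groups were ordered otherwise in IGFBP4 probe 279079, which read −1.55, −2.10 and −1.52 with TNF+IL1, −3.20, −1.51 and −1.77 with TNF, −2.07, −2.67 and −2.90 with IL1, and −1.81, −1.41 and −1.49 with vehicle. All IL1 arrays lay below all vehicle arrays (−0.98 ± 0.41, adjusted p = 0.496), and the TNF+IL1 arrays overlapped vehicle. The deposited values carry no detection calls, so whether a probe this far below the array's middle was above background is unknown. The same holds for IGFBP2 (mean −1.69) and, nearer that middle, for IGFBP7 (0.21) and IGFBP5 probe 195087 (0.13).

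IGFBP5, a binding protein that also attaches to extracellular matrix, was read by 3 probes, and none separated any treatment from vehicle. Probe 429011 gave 3.86, 2.67 and 3.92 with TNF+IL1, 4.72, 4.96 and 3.48 with TNF, 4.37, 3.40 and 5.03 with IL1, and 2.71, 4.45 and 2.98 with vehicle. The arrays of a group differed by more than 1 log2 unit and all groups overlapped, so TNF minus vehicle at 1.00 ± 0.61 (−0.35 to 2.36) was within the error. Probe 195087 varied with it (r = 0.86), whereas probe 129104 did not follow either (r = −0.27 with 429011 and −0.15 with 195087). Probe 129104, by contrast, stayed between 1.89 and 2.43 on all 12 arrays, with TNF minus vehicle at −0.0005 ± 0.17 (−0.38 to 0.38) and TNF+IL1 minus vehicle at −0.19 ± 0.17 (−0.57 to 0.19).

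IGFBP2, which binds IGF2 more tightly than IGF1, had 1 probe with low and scattered readings. Probe 450036 read −1.88, −0.21 and 0.39 with TNF+IL1, −2.22, −2.07 and −3.13 with TNF, −0.22, −3.62 and −0.95 with IL1, and −0.78, −4.46 and −1.15 with vehicle. Vehicle replicate 2 and IL1 replicate 2 were the lowest arrays, and the only groups without overlap were TNF+IL1 and TNF (1.91 ± 1.10, −0.54 to 4.35, adjusted p = 0.981). TNF+IL1 minus vehicle was 1.57 ± 1.10 (−0.88 to 4.01, adjusted p = 0.585), the largest of the 16 probes and also the one with the widest interval. Without vehicle replicate 2 it was 0.40. IGFBP7, a more distant family member with weak affinity for IGFs, gave 0.91, 0.53 and 0.52 with TNF+IL1 in probe 402061, 0.64, −0.16 and 0.25 with TNF, 0.23, 0.06 and −0.06 with IL1, and 0.23, 0.12 and −0.77 with vehicle. Its TNF+IL1 arrays were above every IL1 and every vehicle array, and TNF+IL1 minus vehicle was 0.79 ± 0.30 (0.13 to 1.46, adjusted p = 0.308).

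**Figure D2:**
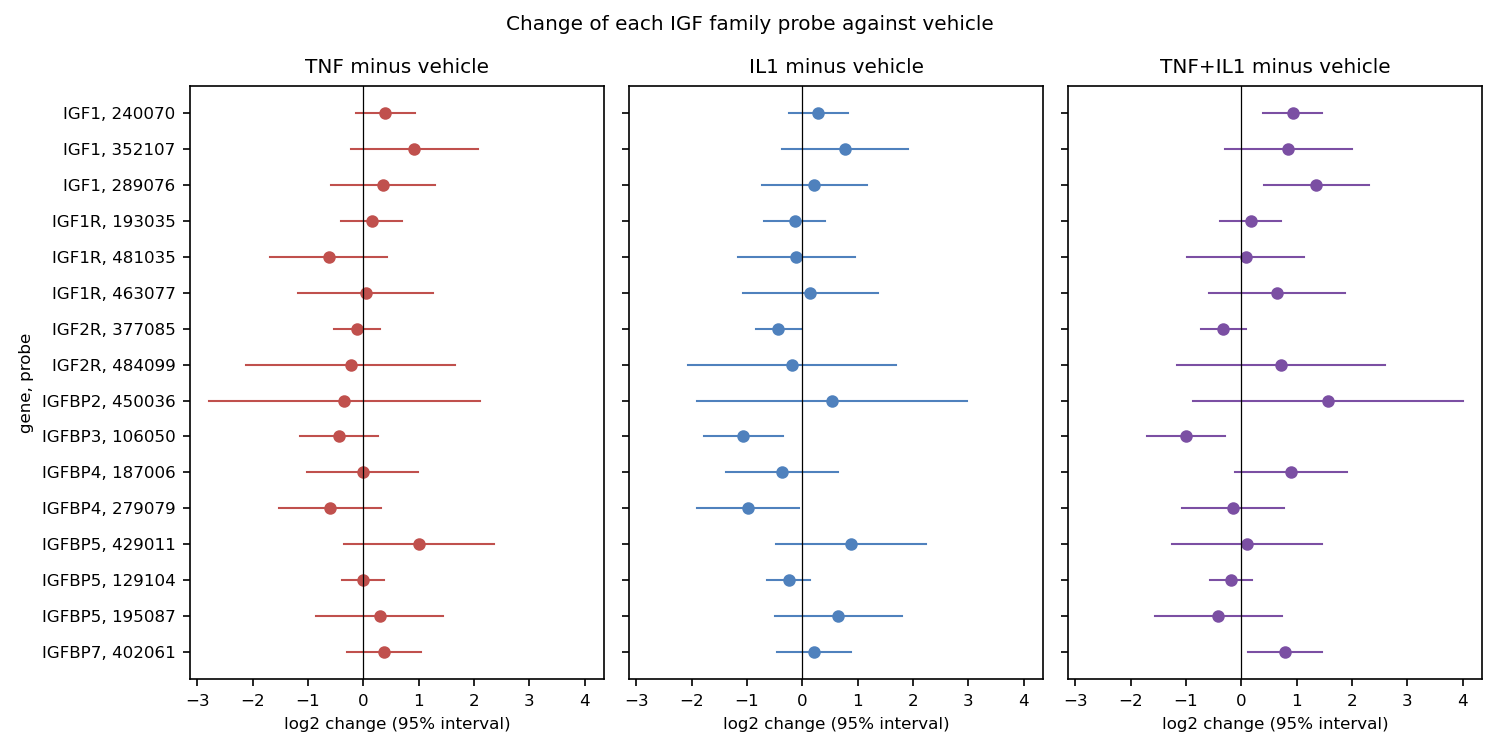
Log2 change of each IGF family probe (rows) for TNF, IL1 and TNF+IL1 minus vehicle (panels from left to right), with the 95% interval from limma. With TNF+IL1 the intervals of IGF1 probes 240070 and 289076 and of IGFBP7 lie above 0 and that of IGFBP3 lies below 0, before any adjustment over the probes tested.

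For TNF alone, 0 of the 16 probes passed the adjusted threshold (0.0466% of all probes did), 0 had an unadjusted p under 0.05 (7.05% of all probes), and 0 had groups without overlap (3.72% of all probes were higher and 6.88% lower in that way). For IL1 alone, 0 passed (0.00559% of all probes did) and 3 had an unadjusted p under 0.05 (9.67% of all probes). Those 3 were the probes of IGFBP3, IGF2R (377085) and IGFBP4 (279079), which were also the only ones without overlap, all lower with IL1. Of all probes, 9.96% were lower and 3.53% higher with IL1 without overlap. The median change of the 16 probes was 0.40 for TNF+IL1, 0.02 for TNF and 0.02 for IL1, each minus vehicle, where the median over all tested probes was −0.13 for TNF+IL1, −0.05 for TNF and −0.13 for IL1. The 3 comparisons share the vehicle arrays.

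Between TNF+IL1 and TNF, 0 of the 16 probes passed (0.00186% of all probes did) and 1 had an unadjusted p under 0.05 (5.08%). Between TNF+IL1 and IL1, 0 passed (0% of all probes) and 3 had an unadjusted p under 0.05 (4.37%), namely both IGF1 probes described as highest with TNF+IL1 and IGFBP4 probe 187006, all higher with TNF+IL1. Groups without overlap in the higher direction numbered 4 in each of these comparisons, against 6.5% of all probes for TNF+IL1 minus TNF and 8.09% for TNF+IL1 minus IL1. In the lower direction 2 probes, IGFBP3 and IGFBP5 129104, were without overlap against TNF (14.7% of all probes) and 0 against IL1 (6.7%). The average TNF effect over IL1 gave 0 calls (0.0801% of all probes) and 3 unadjusted p under 0.05 (7.53%), which were 2 IGF1 probes and IGFBP7. For the interaction of the cytokines there were 0 calls (0% of all probes) and 1 unadjusted p under 0.05 (3.59%), that of IGFBP4 probe 279079 at 1.41 ± 0.59 (0.11 to 2.72, adjusted p = 1.00).

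Several member probes dipped on the same arrays. On the first principal component of all probes, which took 22.6% of the variance, vehicle replicate 3 (score 171), TNF replicate 3 (68.7) and IL1 replicate 2 (53.0) lay at the high end. Vehicle replicate 1 lay at the other end (−84.8), and the remaining 8 arrays scored −33.8 to −18.2. The median Spearman correlation with the other arrays was 0.933 for vehicle replicate 3, 0.950 for vehicle replicate 1, 0.959 for IL1 replicate 2 and 0.965 for TNF replicate 3. No TNF+IL1 array was among these. In 4 of the 16 probes (IGF1R 193035 and 463077, IGF2R 484099 and IGFBP4 187006) the 3 arrays at the high end were the 3 lowest, as they were in 8.2% of all tested probes. Without these 3 arrays, and with vehicle replicate 1 kept, TNF+IL1 minus vehicle was 0.50 for IGFBP4 probe 187006 (adjusted p = 0.263). It was then 0.14 for IGF1R probe 463077 and −0.13 for IGF2R probe 484099. With these 3 arrays in the fit, the difference was 0.90 for the IGFBP4 probe. In that fit it was 0.64 (−0.58 to 1.87) for IGF1R probe 463077 and 0.72 (−1.17 to 2.60) for IGF2R probe 484099. The sign for the IGF2R probe thus differed between the fits.

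For other members, the same omission gave TNF+IL1 minus vehicle of 1.03 for IGF1 probe 240070, 1.02 for IGF1 probe 289076, 1.54 for IGF1 probe 352107, −0.90 for IGFBP3, 0.48 for IGFBP7 and 2.06 for IGFBP2. The lowest adjusted p among the 16 was then 0.0776, for IGF1 probe 352107. With them, the IGFBP7 difference was 0.79, that of IGF1 probe 240070 was 0.93, that of IGFBP3 was −0.995 and that of IGFBP2 was 1.57.

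**Figure D3:**
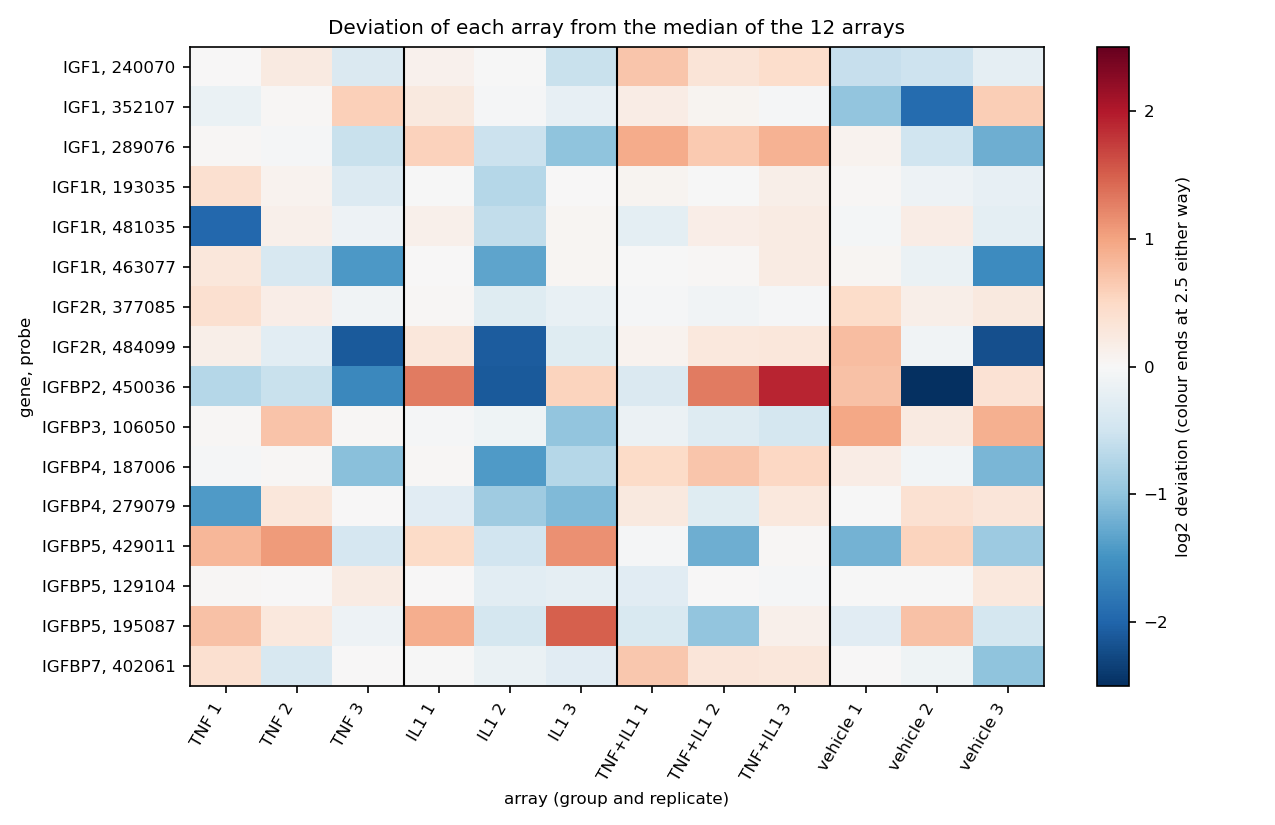
Deviation of each array (columns, TNF, IL1, TNF+IL1 and vehicle, replicates 1 to 3) from the median of the 12 arrays for each IGF family probe (rows), in log2 units, with red above and blue below the median. Blue cells recur on TNF replicate 3, IL1 replicate 2 and vehicle replicate 3 in the rows of IGF1R probes 193035 and 463077, IGF2R probe 484099 and IGFBP4 probe 187006, and IGF1 probes 240070 and 289076 are red on all 3 TNF+IL1 arrays.

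The measured stromal markers, 11 of 12 listed, all lay above the array median. Of the epithelial markers, 6 of 9 measured did so, and their summed intensity was 41.7 to 44.1 on the TNF+IL1 arrays, 61.5 to 109 on the TNF arrays, 28.4 to 66.4 on the IL1 arrays and 89.3 to 123 on the vehicle arrays. KRT19, a keratin of simple epithelia with a mean intensity of 50.9, made up most of that sum. With TNF+IL1 minus vehicle 1 of the 9 passed the test, the keratin KRT18, which fell (−1.58, adjusted p = 0.0447); KRT19 was at −1.30 (adjusted p = 0.284), and ELF3 (0.73, adjusted p = 0.180), CLDN4 (0.35) and KRT7 (0.15) were higher without passing. The epithelial marker EPCAM had a mean intensity of 0.417 and the leukocyte marker PTPRC one of 0.112, where the array medians are near 1. Leukocyte markers summed to 8.90 to 9.71 on TNF+IL1 arrays and 5.9995 to 8.94 on vehicle arrays, with 2 of 7 above the array median. Proliferation markers summed to 43.5 to 50.2 on TNF+IL1 arrays and 50.6 to 100.4 on vehicle arrays. The part of these differences in the values of the IGF genes was not tested. The treatments registered on the arrays. With TNF+IL1 minus vehicle, SOD2, a mitochondrial enzyme induced by these cytokines, rose by 4.77 (adjusted p = 0.000518). HSD11B1, which generates cortisol, rose by 7.12 (adjusted p = 0.000518). Of the reference genes, ACTB differed by −0.01 and GAPDH by −0.29 (adjusted p = 0.458). The TNF+IL1 arrays of GAPDH lay below all other arrays. Of all probes, 14.8% were lower than vehicle without overlap.

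The surrounding pathway was read through 39 of 44 listed genes, each by its brightest single-gene probe. In every comparison 0 of the 39 passed the adjusted threshold. Between TNF+IL1 and vehicle 4 had an unadjusted p under 0.05, 3 of them higher and 1 lower, against 12.9% of all probes. The median change was 0.14, against −0.13 over all probes. The proteases that cut binding proteins and the inhibitors of those proteases had a median change of 1.06 over 9 genes. Of the 9, 4 were higher without overlap between groups, as were 7.02% of all probes. The median is the change of PAPPA2 (−0.55 to 2.66), which is also 1 of those 4. PAPPA2 lay below the array's middle, at −2.33 to −1.54 with TNF+IL1 and −3.40 to −2.38 with vehicle. Whether its probe was above background is unknown. HTRA1 (−0.47) and PLAT (−0.18) lay in the lower direction. That median was the highest of the roles into which the list was divided. It was 0.16 for ligands and carriers, 0.14 for receptors, −0.13 for adaptors, 0.12 for kinases and targets, and −0.33 for mRNA-binding proteins. In those roles only 1 gene, among the 11 kinases and targets, was higher without overlap.

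MMP3, a matrix metalloproteinase that can degrade IGFBP3, read 5.88, 6.43 and 6.61 with TNF+IL1, 5.69, 4.35 and 7.71 with IL1, 4.64, 3.78 and 4.86 with TNF, and 2.86, 3.76 and 3.19 with vehicle. Each treated array lay above every vehicle array, TNF replicate 2 only just. The change was 3.04 ± 0.70 for TNF+IL1 (1.49 to 4.59, adjusted p = 0.138), 2.64 ± 0.70 for IL1 (adjusted p = 0.427) and 1.15 ± 0.70 for TNF (adjusted p = 0.805), each minus vehicle. PAPPA, the metalloproteinase that cuts IGFBP4, read 2.49, 1.91 and 2.03 with TNF+IL1, 1.52, 1.46 and 0.99 with TNF, 1.68, 0.80 and 0.68 with IL1, and 1.29, 1.14 and 1.54 with vehicle. As with IGF1 probe 240070, the TNF+IL1 arrays of PAPPA were the 3 highest of the 12, at 0.82 ± 0.29 above vehicle (0.17 to 1.48, adjusted p = 0.285). PAPPA has 2 single-gene probes, of which only the brightest was read. The stanniocalcin STC2, an inhibitor of PAPPA singled out after its values were seen, was 1.71 ± 0.72 above vehicle with TNF+IL1 (0.11 to 3.32, adjusted p = 0.356).

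Downstream of the receptor, AKT2, a kinase of the PI3 kinase branch, was lower than vehicle on every treated array. It read 4.88, 4.56 and 4.70 with TNF+IL1, 4.98, 4.51 and 4.59 with IL1, 4.99, 4.88 and 4.76 with TNF, and 5.08, 5.14 and 5.25 with vehicle. The change was −0.45 ± 0.18 for TNF+IL1 (adjusted p = 0.351) and −0.47 ± 0.18 for IL1 (adjusted p = 0.470). Of all probes, 14.8% were lower than vehicle without overlap with TNF+IL1, 9.96% with IL1 and 6.88% with TNF. AKT2 has 2 single-gene probes, of which only the brightest was read. IRS2, an adaptor of the IGF1 and insulin receptors, was −2.03 ± 1.04 from vehicle with TNF (adjusted p = 0.752), a value that rested on TNF replicate 3 at −7.29, where all other arrays lay between −2.96 and −1.60. HTRA1, a serine protease, differed by −0.59 ± 0.35 with TNF (adjusted p = 0.797), and PLAU, the urokinase that activates plasmin, by 1.43 ± 0.72 with IL1 (adjusted p = 0.562).

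The other ligand, IGF2, had 2 probes, and no difference in it passed the test. Probe 86073 gave 7.49, 6.26 and 6.60 with TNF+IL1, 6.63, 5.79 and 6.94 with IL1, 5.97, 5.18 and 5.45 with TNF, and 6.37, 6.49 and 5.64 with vehicle. All TNF+IL1 arrays lay above all TNF arrays and overlapped vehicle. TNF+IL1 minus TNF was 1.25 ± 0.41 (0.33 to 2.16, adjusted p = 0.951), and the second IGF2 probe, 278052, gave 1.16 ± 0.42 (0.23 to 2.09). IGFBP1, the decidual binding protein, stayed below the middle of the array in both its probes on all 12 arrays (−3.60 to −0.78), and TNF+IL1 minus vehicle was −0.02 and −1.13 for these probes.

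**Figure D4:**
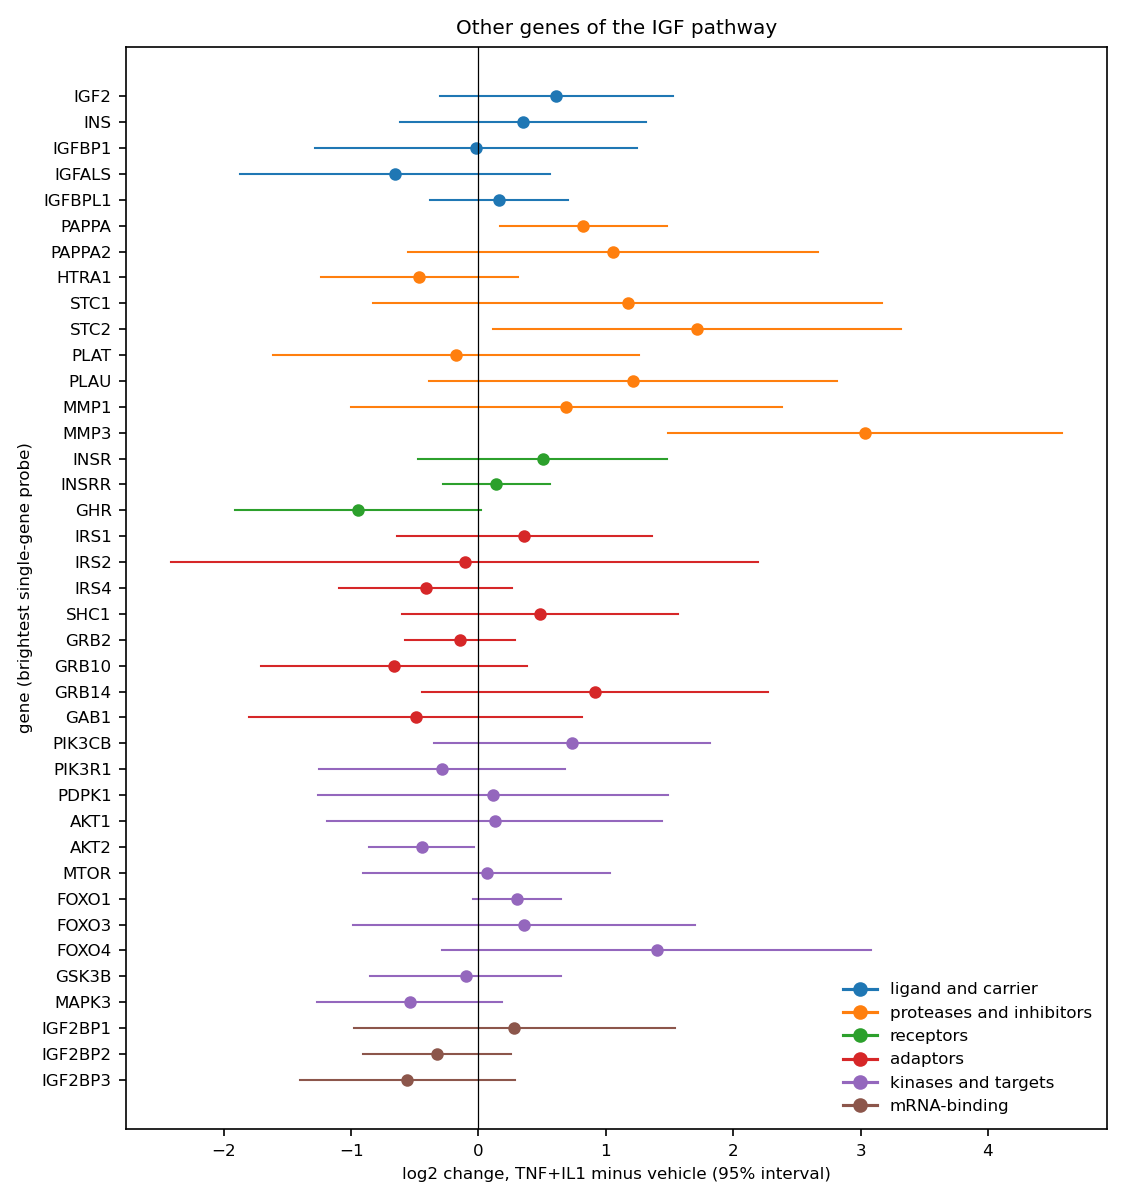
Log2 change, TNF+IL1 minus vehicle, of the 39 measured pathway genes (rows, coloured by role), with the 95% interval from limma. The intervals of MMP3, PAPPA and STC2 lie above 0 and that of AKT2 below 0, and 0 of the 39 passed after adjustment over all probes.

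Among 11921 other genes with values on all arrays and a probe mean above the middle, the ones whose pattern over the 12 arrays was most like IGF1 probe 240070 were C2, a complement component (Pearson r = 0.889, Spearman rho = 0.874), CLDN12, a claudin (0.882 and 0.818), and RARRES1, a gene induced by retinoids (0.880 and 0.881). These correlations share the arrays and the treatments and are given as a description. TNF+IL1 minus vehicle was 1.43 ± 0.30 for C2 (adjusted p = 0.116), 0.78 ± 0.17 for CLDN12 (adjusted p = 0.132) and 1.62 ± 0.35 for RARRES1 (adjusted p = 0.119). C2 averaged 2.78 ± 0.13 with TNF+IL1, 2.13 ± 0.52 with TNF, 1.69 ± 0.49 with IL1 and 1.34 ± 0.15 with vehicle (SD, 3 arrays each). These genes were picked for likeness to a probe that was highest with TNF+IL1. That they are higher with TNF+IL1 follows from that choice and is no separate result.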

How the data were processed

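Total RNA of 12 cultures was labelled and hybridised to 1 single-colour CodeLink whole-genome array each, per the labels. The deposited values were linear intensities; that the authors had scaled each array to a median near 1 was inferred from the values. For image analysis and normalization the software is not given in the sources used here. The missing code −9999 (0.716% of values) and values at or below 0 (1.1%) were left out, and log2 was taken. Group means were fitted to the 53671 of 54359 probes with at least 2 values in every group, with limma 3.58.1 in R 4.3.3 (8 residual degrees of freedom, two-sided, Benjamini-Hochberg adjustment over all probes tested), and adjusted p under 0.05 was a call. Gene names came from the platform annotation: 23472 probes with 1 gene (23434 updated by Entrez identifier), 905 with several and 29982 with none.

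The members, the pathway and marker lists and the rules were chosen with earlier results of these data known. All members were named, plus the 3 pathway genes with the lowest p in each comparison with vehicle and the 3 genes most like the IGF1 probe of lowest p. Same-numbered replicates share a passage per the labels; after removal of group means same-passage pairs correlated at 0.00712 on average (18 pairs, −0.196 to 0.310), and different-passage pairs at −0.00291 (36 pairs). Passage was a block in an alternative. Other alternatives were quantile normalization, an offset, omission of dim or incomplete probes, 1 probe per gene, trend and robust variance, array quality weights, only the compared arrays, and omission of each array or of the 3 that lay apart. The number of arrays limits the precision.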

Additional observations from a re-analysis of the deposited data

How the results depend on the processing

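No IGF family probe was called under any alternative except array quality weights, which for TNF+IL1 minus vehicle called 2 of the 16, IGF1 probes 240070 (0.97, adjusted p = 0.0431) and 352107 (1.68, adjusted p = 0.0299), while calls over all probes went to 1677 with the weights, against 133 without. The weights were lowest on vehicle replicates 3 (0.174) and 1 (0.312). With the replicate block (passage) 0 of the 16 were called in any comparison; the lowest adjusted p for TNF+IL1 minus vehicle was 0.191 and IGF1 probe 240070 had 0.246. Over all probes the block gave 88 calls for TNF+IL1 against 133 without it, and 13 for TNF against 25 without it. Leaving out arrays or changing the other settings gave 24 to 248 calls for TNF+IL1, 0 to 57 for TNF and 0 to 10 for IL1, each minus vehicle.

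The 65 single-probe changes recomputed were all those minus vehicle, plus others picked for an unadjusted p under 0.05 or groups without overlap. Of the 65, 45 kept 1 sign under every alternative. Among them were TNF+IL1 minus vehicle for all 3 IGF1 probes, IGFBP3, IGFBP4 probe 187006 and IGFBP7. Except for IGF1 probe 352107, these had groups without overlap, so leaving out arrays could not turn their sign. Changes that took the opposite sign had these values, and the cause was not tested. Under quantile normalization, IL1 minus vehicle was 0.12 for IGF1R probe 193035 and 0.030 for IGF1R probe 481035, and TNF+IL1 minus vehicle was 0.013 for IGFBP4 probe 279079. Under array weights, IL1 minus vehicle was −0.050 for IGF1 probe 289076, 0.014 for IGF1R probe 193035 and −0.038 for IGFBP7. TNF+IL1 minus vehicle was −0.050 for IGF1R probe 481035 and −0.65 for IGFBP5 probe 429011 under those weights, and TNF minus vehicle was 0.066 for IGF2R probe 377085, 1.44 for IGFBP2, 0.033 for IGFBP5 probe 129104 and −0.048 for IGFBP5 probe 195087. Without vehicle 3, TNF 3 and IL1 2 together, IL1 minus vehicle was −0.012 for IGF1 probe 289076, 0.048 for IGF1R probe 193035, 0.030 for IGF1R probe 481035 and −0.092 for IGFBP7. TNF+IL1 minus vehicle was −0.024 for IGF1R probe 481035, −0.13 for IGF2R probe 484099 and −0.094 for IGFBP5 probe 429011 without them, and TNF minus vehicle was −0.00080 for IGF1R probe 463077, 0.48 for IGFBP2 and 0.024 for IGFBP5 probe 129104.

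Leaving out 1 array at a time turned 19 changes, all minus vehicle. TNF ranged from −0.025 to 0.34 for IGF1R probe 193035, −1.01 to 0.030 for 481035, −0.46 to 0.51 for 463077, −0.23 to 0.0085 for IGF2R probe 377085, −1.08 to 0.45 for 484099, −1.51 to 0.33 for IGFBP2, −0.41 to 0.34 for IGFBP4 probe 187006 and −0.062 to 0.085 for IGFBP5 probe 129104. IL1 ranged from −0.23 to 0.56 for IGF1 probe 289076, −0.25 to 0.10 for IGF1R probe 193035, −0.24 to 0.13 for 481035, −0.36 to 0.60 for 463077, −1.04 to 0.50 for IGF2R probe 484099, −0.63 to 1.54 for IGFBP2 and −0.10 to 0.40 for IGFBP7. TNF+IL1 ranged from −0.024 to 0.22 for IGF1R probe 481035, −0.13 to 1.35 for IGF2R probe 484099, −0.27 to 0.033 for IGFBP4 probe 279079 and −0.23 to 0.64 for IGFBP5 probe 429011.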
